A study of Homo sapiens with 20 samples.

Results

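The genes described here are the ATP-binding cassette (ABC) genes, chosen as every gene of the deposited tables whose symbol reads ABC, a subfamily letter from A to G and a number. 33 of the 15531 genes listed met that rule, 28 of the 14222 listed at 5 h and all 33 of the 15381 listed at 12 h. ABC genes under other symbols, such as TAP1, TAP2 and CFTR, do not meet it. They are left out of all counts of the family and its subfamilies. ABCA9, ABCA12, ABCB4, ABCC12 and ABCG1 were listed only at 12 h. The members comprised 7 genes of subfamily A, 7 of B, 9 of C, 3 of D, 1 of E, 3 of F and 3 of G, and all 33 are protein coding in GENCODE release 29 on GRCh38. The 5 drug efflux pumps ABCB1, ABCC1, ABCC2, ABCC3 and ABCG2 were set apart from the other 28.

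Expression was measured by RNA sequencing of poly(A) RNA from HCT116, an established human colorectal carcinoma line, after 5 h or 12 h of treatment. The treated groups received chaetocin, chetomin, MeS-chaetocin or MeS-chetomin at 500 nM, and the vehicle groups received DMSO at 0.5%. Each of the 10 groups held 2 libraries labelled as biological replicates, 20 in all. Chaetocin and chetomin are fungal epidithiodiketopiperazines, natural products with sulfur bridges across their ring systems, and the labels describe the MeS compounds as analogs of the pair that are depleted of sulfide. The 4 compounds were thus compared with vehicle and with each other at a matched dose and matched times. All groups share a single cell line, and in such bulk RNA fewer cells of a type and less RNA per cell cannot be told apart.

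ABC proteins bind and split ATP with a pair of conserved nucleotide-binding domains, and most of them use that energy to move a substrate across a membrane. Subfamilies A and G hold mainly lipid transporters, B and C hold the pumps that expel drugs and glutathione conjugates together with mitochondrial and lysosomal members, and D holds peroxisomal and lysosomal members. Subfamilies E and F lack membrane-spanning domains and act on ribosomes. In intestinal epithelium ABCB1 and ABCG2 export drugs into the gut lumen, and their abundance in colorectal tumours is studied in connection with drug resistance.

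The deposited values per library are normalised and follow transcript length, but no header names their unit. They are called normalised values here, and levels are set side by side between genes on that reading. Their sum per library ranged from 875371 to 1170802, and 3 libraries at 5 h had the highest sums (chaetocin replicate 2, MeS-chaetocin replicate 1 and vehicle replicate 1). Effective library sizes could be recovered for 12 libraries of the MeS and vehicle groups and ranged from 24.7 to 39.9 M, whereas the depth of the 8 chaetocin and chetomin libraries is unknown. Differences were tested with limma on log2(value + 1), a scale on which the changes of scarce transcripts look smaller than they are. A gene is called changed where its p, adjusted by Benjamini and Hochberg's method across the whole comparison, is under 0.05. Some counts are also given at an unadjusted p under 0.05. The share of all genes at that threshold was not taken, so those counts are no result about the family. 6 of 8 epithelial markers were listed and none was at 0 in any library, with summed values of 3314 to 5500. CLDN4 was called lower with chaetocin and with chetomin at both times, as were KRT19 with chaetocin and CDH1 with chetomin at 12 h. On the authors' CPM scale at 12 h CLDN4 alone was lower, and KRT8 and KRT18 were higher, with each of these compounds.

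In vehicle cells the family spanned near silence to high abundance. At 12 h, 12 of the 33 members had a mean normalised value of at least 10 in vehicle, 23 had at least 1, and 5 had less than 0.2, namely ABCA4, ABCA9, ABCB4, ABCC11 and ABCC12. The ribosome-acting members stood highest, with means of 91.2 for ABCE1, the ribosome recycling factor, and 75.2 for ABCF2. The highest of the other subfamilies were ABCB8, a mitochondrial transporter (28.0), ABCD4, a lysosomal transporter needed for vitamin B12 release (26.2), ABCC1, a glutathione conjugate pump (25.4), and ABCA2, a lysosomal lipid transporter (23.6). Subfamily G had no abundant member: its highest was ABCG2 at 0.92. ABCD4 had 24.20 and 28.16 in the vehicle libraries and ABCB8 had 24.66 and 31.34, so these neighbours in the order did not differ beyond their spread.

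The sequences just before the start of a pair of genes that were higher (ABCB1 and ABCC12) and a pair that were lower (ABCB10 and ABCD3) in chaetocin-treated cells at 12 h are shown because they differ in base composition. They were picked after the values were seen and come from the RefSeq promoter table for GRCh38.p14. Each holds the 250 bases before the start, written 5′ to 3′ on the gene's own strand. ABCB1 lies at chr7:87713296-87713545 (minus strand, 39.2% G and C), ABCC12 at chr16:48155994-48156243 (minus strand, 56.4%), ABCB10 at chr1:229558708-229558957 (minus strand, 77.2%) and ABCD3 at chr1:94418139-94418388 (plus strand, 74.4%). Capitals mark GC boxes (GGGCGG or its reverse complement) and metal response element cores (TGCGCNC on either strand or, in the other form searched, TGCACNC).
ABCB1: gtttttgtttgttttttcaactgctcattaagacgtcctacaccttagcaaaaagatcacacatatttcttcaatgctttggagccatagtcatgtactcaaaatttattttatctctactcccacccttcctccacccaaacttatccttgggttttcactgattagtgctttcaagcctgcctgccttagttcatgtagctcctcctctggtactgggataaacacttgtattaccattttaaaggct
ABCC12: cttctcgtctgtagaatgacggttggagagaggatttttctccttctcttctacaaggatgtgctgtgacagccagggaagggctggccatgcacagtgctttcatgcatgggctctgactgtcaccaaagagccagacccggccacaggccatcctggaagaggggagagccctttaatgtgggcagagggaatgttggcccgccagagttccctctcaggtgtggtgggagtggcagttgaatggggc
ABCB10: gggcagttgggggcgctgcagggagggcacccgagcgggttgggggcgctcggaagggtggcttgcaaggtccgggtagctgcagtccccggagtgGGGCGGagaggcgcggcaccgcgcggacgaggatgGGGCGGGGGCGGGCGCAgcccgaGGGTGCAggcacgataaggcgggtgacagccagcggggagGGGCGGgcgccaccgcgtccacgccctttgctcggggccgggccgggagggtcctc
ABCD3: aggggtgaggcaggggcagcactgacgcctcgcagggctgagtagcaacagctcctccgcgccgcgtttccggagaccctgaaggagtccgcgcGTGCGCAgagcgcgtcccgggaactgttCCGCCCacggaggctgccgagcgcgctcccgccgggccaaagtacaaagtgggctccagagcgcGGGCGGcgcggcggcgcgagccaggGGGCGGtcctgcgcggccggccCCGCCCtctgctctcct

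The ABCB1 and ABCC12 windows, each the first of several entries for its gene, hold neither motif. Base composition depends on the entry: the second ABCB1 entry has 55.6% G and C, and the other ABCC12 entries have 46.0% and 51.2%. The ABCB10 window holds 4 GC boxes and 2 metal response element cores, 1 of which overlaps a GC box, and the ABCD3 window holds 4 GC boxes and 1 core. 26 of the 33 members had an entry in the table, and ABCA4, ABCB4, ABCC1, ABCC3 and ABCG1 were among those without one. 6 motifs were searched, and each gene was counted once where any of its windows held the motif. Grouped by the chaetocin calls at 12 h, a GC box was found in 1 of 4 members that were higher, 7 of 8 that were lower and 10 of 14 that were not called, as against 46.2% of the 27305 genes of the table. A metal response element core was found in 0 of 4, 7 of 8 and 9 of 14 in the same order, as against 28.5% of genes. An antioxidant response element core (TGACNNNGC) was found in 0 of 4, 3 of 8 and 6 of 14, as against 13.2% of genes, and an E-box (CACGTG) in 1 of 4, 1 of 8 and 5 of 14, as against 7.73%. The AP-1 site (TGANTCA) was found in 2 of 4, 0 of 8 and 0 of 14, as against 8.06% of genes. The CCAAT box was found in 2 of 4, 0 of 8 and 6 of 14, as against 37.0%. The CCAAT matches of ABCB1 and ABCC12 and the AP-1 match of ABCB1 lie in the second entry of each gene, which is not shown. Those windows share 194 (ABCB1) and 250 (ABCC12) of their 250 bases with exons of the gene. The 4 higher members with an entry were ABCA9, ABCB1, ABCC11 and ABCC12, and all but ABCB1 were near silence in vehicle. For such genes a higher value in a treated group is in part a condition of being listed. The groups thus also differ in vehicle level, and the counts cannot separate that from the direction of change. The groups are small and no test was made. Both strands were searched, and a match describes these letters only.

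The drug efflux pumps moved in different directions in cells treated with the intact compounds for 12 h. ABCB1 (ENSG00000085563, chr7:87503633-87713323, minus strand, 33 exon blocks), the P-glycoprotein that expels many hydrophobic drugs, rose with both. ABCC3 (ENSG00000108846, chr17:50634777-50692252, plus strand, 35 exon blocks), which exports glucuronide and bile acid conjugates, also rose with both. ABCC1 (ENSG00000103222, chr16:15949577-16143074, plus strand, 34 exon blocks), which exports glutathione conjugates and glutathione itself, fell with both. ABCC2 (ENSG00000023839, chr10:99782640-99852594), the apical conjugate pump, and ABCG2 (ENSG00000118777, chr4:88090264-88231322), the breast cancer resistance protein, were not called with either.

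At 12 h ABCB1 had normalised values of 14.77 and 10.85 in chaetocin-treated cells, 7.70 and 5.36 in chetomin-treated cells and 2.48 and 3.11 in vehicle cells. All 4 libraries of the intact compounds lay above both vehicle libraries. The ratio of means was 4.58 for chaetocin over vehicle and 2.34 for chetomin over vehicle. The log2 difference was 1.85 ± 0.24 for chaetocin (SE, adjusted p = 0.00205) and 0.98 ± 0.27 for chetomin (SE, adjusted p = 0.0244). ABCB1 overlaps RUNDC3B on the opposite strand. Library construction kept the strand, but no source used here gives the strand setting of the authors' counting, so the reads of the pair may not be separable.

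ABCC3 had 12.33 and 12.50 in chaetocin-treated cells, 15.77 and 12.98 in chetomin-treated cells and 2.70 and 3.13 in vehicle cells at 12 h. The means were 12.4 ± 0.12, 14.4 ± 1.97 and 2.92 ± 0.304 in the same order (SD, n = 2 each), with no overlap between treated and vehicle libraries. Its log2 difference was 1.78 ± 0.21 with chaetocin (SE, adjusted p = 0.00142), a ratio of means of 4.26. With chetomin it was 1.97 ± 0.25 (SE, adjusted p = 0.00107), a ratio of 4.93.

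ABCC1 ran the other way, with 11.89 and 10.82 in chaetocin-treated cells, 10.58 and 7.21 in chetomin-treated cells and 26.02 and 24.73 in vehicle cells at 12 h. Every vehicle value was more than the highest treated value. The log2 difference was -1.09 ± 0.17 with chaetocin (SE, adjusted p = 0.00352) and -1.44 ± 0.24 with chetomin (SE, adjusted p = 0.00323), ratios of means of 0.45 and 0.35. The vehicle libraries are the same in both comparisons, so the comparisons are not independent of each other. A fall here means a value below vehicle at the same time. The vehicle mean of ABCC1 was 13.4 at 5 h and 25.4 at 12 h. With chaetocin it was 13.4 and 11.4, and with chetomin 12.2 and 8.9. Vehicle cells were not tested between the times.

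ABCC2 had 15.54 and 15.36 in chaetocin-treated cells, 14.29 and 12.33 in chetomin-treated cells and 23.85 and 17.79 in vehicle cells at 12 h. All treated values lay below vehicle, but the difference of -0.39 with chaetocin (95% interval -0.87 to 0.08, adjusted p = 0.145) and of -0.60 with chetomin (-1.11 to -0.08, adjusted p = 0.0691) missed the threshold. ABCG2 was low and scattered, with 0.51 and 2.44 in chaetocin-treated cells, 1.23 and 0.72 in chetomin-treated cells and 0.81 and 1.03 in vehicle cells. Its intervals, -0.63 to 1.13 with chaetocin and -0.39 to 0.45 with chetomin, leave room for changes either way. The summed values of the 5 pumps at 12 h were 55.04 and 51.97 in chaetocin-treated cells, 49.57 and 38.60 in chetomin-treated cells and 55.86 and 49.79 in vehicle cells. The chaetocin sums overlapped those of vehicle, and both chetomin sums lay below both vehicle sums.

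At 5 h the pump changes were smaller, and ABCC3 with chetomin was the single call. ABCC3 had 8.89 and 11.37 in chetomin-treated cells, 3.32 and 3.84 in chaetocin-treated cells and 2.99 and 2.53 in vehicle cells. The chetomin libraries stood apart from all others, with a log2 difference from vehicle of 1.56 ± 0.25 (SE, adjusted p = 0.00751) and a ratio of means of 3.67, whereas chaetocin gave 0.28 (95% interval -0.31 to 0.88, adjusted p = 0.519). ABCB1 had 1.24 and 2.42 in chaetocin-treated cells, 2.40 and 1.51 in chetomin-treated cells and 0.86 and 0.58 in vehicle cells. Its treated libraries lay above vehicle, but the differences of 0.69 (95% interval 0.09 to 1.29, adjusted p = 0.131) and 0.77 (0.26 to 1.27, adjusted p = 0.0512) missed the threshold. The chetomin difference of ABCB1 at 5 h was 0.93 on the authors' CPM scale and was called there.

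The remaining pumps were not called at 5 h. ABCC1 had 16.03 and 10.84 in chaetocin-treated cells, 13.43 and 10.99 in chetomin-treated cells and 10.84 and 15.98 in vehicle cells, so the groups covered one another (chaetocin 0.00, 95% interval -0.67 to 0.68; chetomin -0.11, -0.69 to 0.47). ABCC2 had 14.13 and 10.54 in chaetocin-treated cells, 10.50 and 11.33 in chetomin-treated cells and 5.60 and 8.55 in vehicle cells. Vehicle was lowest here, unlike at 12 h, and the differences were 0.73 with chaetocin (0.06 to 1.41, adjusted p = 0.152) and 0.58 with chetomin (-0.02 to 1.19, adjusted p = 0.17). ABCG2 ranged from 0.35 to 1.46 over the chaetocin, chetomin and vehicle libraries, with differences of 0.24 (-0.47 to 0.95) with chaetocin and -0.18 (-0.78 to 0.42) with chetomin.

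No pump was called with either analog at either time. At 12 h ABCB1 had 3.10 and 2.19 in MeS-chaetocin cells, 2.16 and 1.85 in MeS-chetomin cells and 2.48 and 3.11 in vehicle cells, with intervals of -0.63 to 0.50 and -0.79 to 0.12 for the analogs in the same order. ABCC1 had 30.38 and 31.23 in MeS-chaetocin cells, 25.57 and 26.17 in MeS-chetomin cells and 26.02 and 24.73 in vehicle cells. ABCC3 had 5.79 and 4.80 in MeS-chaetocin cells, 3.79 and 3.24 in MeS-chetomin cells and 2.70 and 3.13 in vehicle cells. Both MeS-chaetocin libraries lay above vehicle, but the difference of 0.68 (95% interval 0.13 to 1.23, adjusted p = 0.786) missed the threshold over all genes. ABCC2 differed from vehicle by -0.29 (-0.83 to 0.25) with MeS-chaetocin and 0.12 with MeS-chetomin at 12 h, and ABCG2 by 0.07 and 0.17. At 5 h the analog differences of the pumps ran from -0.25 (ABCC1 with MeS-chaetocin, -1.32 to 0.82) to 0.64 (ABCC1 with MeS-chetomin, 0.08 to 1.21, adjusted p = 0.283).

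**Figure D1:**
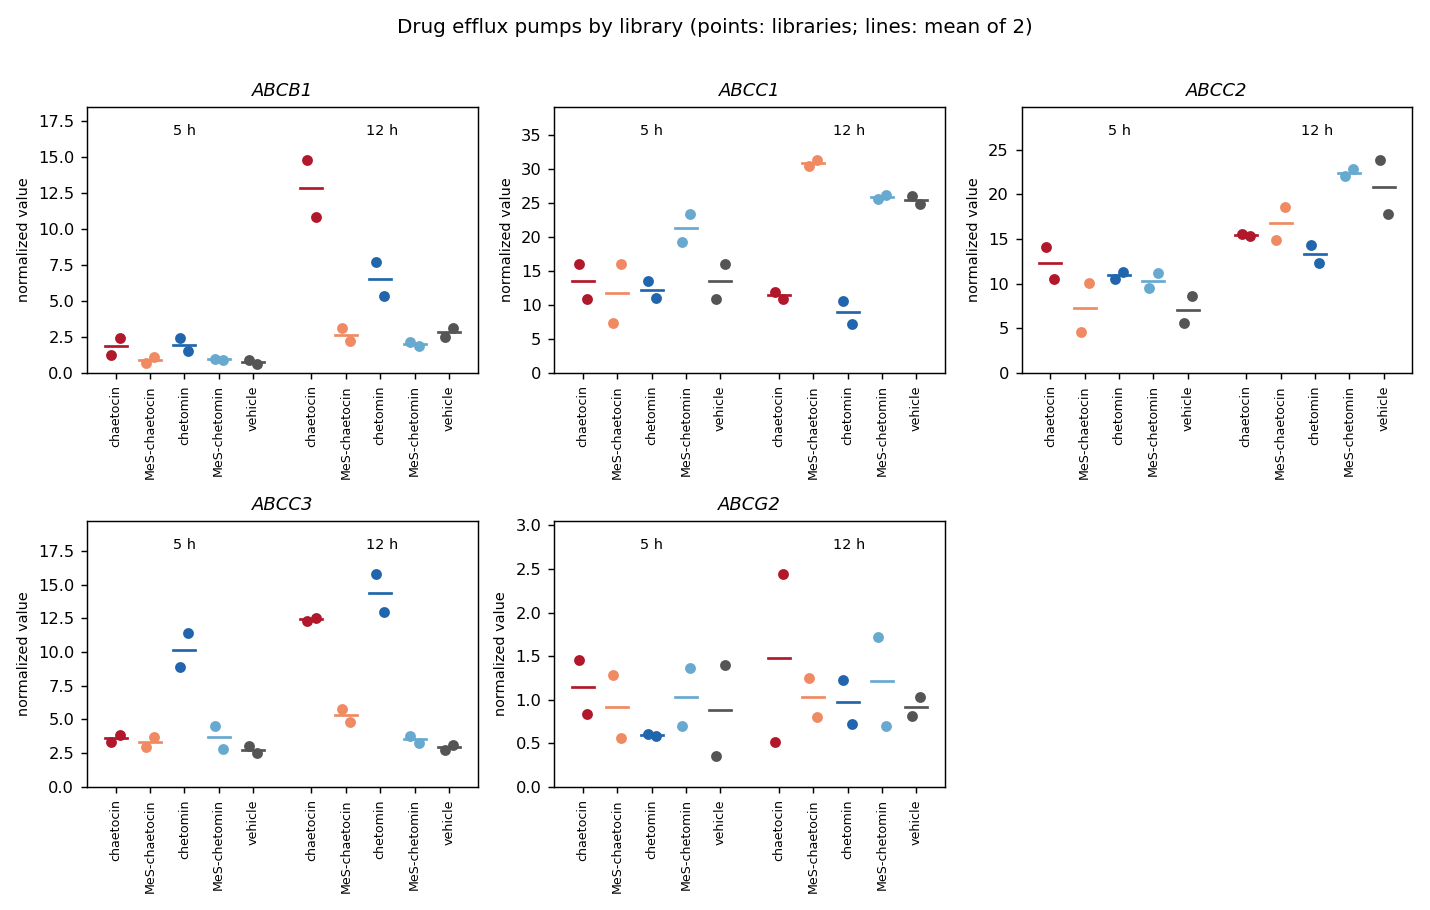
Normalised values of the 5 drug efflux pumps in every library at 5 h and 12 h, by treatment group, with points for the 2 libraries of a group and a bar at their mean. At 12 h the chaetocin and chetomin libraries of ABCB1 and ABCC3 lie above the analog and vehicle libraries and those of ABCC1 lie below them, while ABCG2 is low in all groups.

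The lysosomal and peroxisomal members included the largest decline with chaetocin. ABCD4 (chr14:74285423-74303056, minus strand) had 9.50 and 8.89 in chaetocin-treated cells, 8.14 and 11.70 in chetomin-treated cells and 24.20 and 28.16 in vehicle cells at 12 h. The groups did not overlap, and ABCD4 fell by 1.41 ± 0.18 on the log2 scale with chaetocin (SE, adjusted p = 0.00184) and by 1.33 ± 0.23 with chetomin (SE, adjusted p = 0.00437). ABCA3, a phospholipid transporter of lysosome-related organelles, had 0.48 and 0.46 in chaetocin-treated cells, 0.69 and 0.30 in chetomin-treated cells and 1.49 and 1.53 in vehicle cells, and fell with both (-0.77 and -0.76, adjusted p = 0.00547 and 0.0131). ABCA5, a lysosomal lipid transporter, fell with chaetocin (-0.86 ± 0.18, SE, adjusted p = 0.0111) and had a difference of -0.45 with chetomin (adjusted p = 0.123). With ABCA2 and ABCB9, which were not called, 0 of 5 lysosomal members were higher and 3 were lower with chaetocin (median log2 difference -0.77), and 0 were higher and 2 lower with chetomin (median -0.58). Over all genes 26.8% were called lower with chaetocin and 20.2% with chetomin, with medians of -0.16 and -0.15.

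ABCD3, a peroxisomal transporter of fatty acids, had 8.02 and 9.19 in chaetocin-treated cells, 12.89 and 11.20 in chetomin-treated cells and 23.35 and 14.97 in vehicle cells at 12 h. It fell with chaetocin (-1.04 ± 0.25, SE, adjusted p = 0.0164) and had a difference of -0.60 with chetomin (adjusted p = 0.0977). ABCD3 had 11.08 and 15.33 in MeS-chaetocin cells, a difference from vehicle of -0.49 (95% interval -1.17 to 0.19, adjusted p = 0.786), and chaetocin against MeS-chaetocin was not called (-0.55, -1.15 to 0.05, adjusted p = 0.105).

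Among mitochondrial members ABCB10, which supports haem synthesis in erythroid cells, was called with both intact compounds. It had 5.07 and 5.05 in chaetocin-treated cells, 4.38 and 4.46 in chetomin-treated cells and 9.80 and 9.14 in vehicle cells at 12 h, and fell with both (-0.79 ± 0.20, adjusted p = 0.0201; -0.95 ± 0.24, adjusted p = 0.0169, SE). ABCB10 has pseudogene copies elsewhere in the genome, so its reads may be shared and its value is uncertain to that extent. ABCB6 and ABCB8 were not called, and ABCB8 kept 23.86 and 24.49 in chaetocin-treated cells, 26.21 and 25.03 in chetomin-treated cells and 24.66 and 31.34 in vehicle cells.

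The members that act on ribosomes included an early decline. ABCF3 (chr3:184186023-184194012, plus strand), a relative of the yeast activator of the Gcn2 kinase pathway, had 29.84 and 30.00 in chaetocin-treated cells, 30.83 and 29.55 in chetomin-treated cells and 55.17 and 45.16 in vehicle cells at 5 h. The treated libraries lay close together below vehicle, and ABCF3 fell with both (-0.72 ± 0.18, adjusted p = 0.0455; -0.71 ± 0.17, adjusted p = 0.0317, SE). At 12 h it had 22.79 and 20.04 in chaetocin-treated cells, 25.64 and 26.32 in chetomin-treated cells and 44.25 and 53.02 in vehicle cells, with differences of -1.14 ± 0.17 (SE, adjusted p = 0.00297) and -0.87 ± 0.18 (SE, adjusted p = 0.00803). On the authors' CPM scale the 5 h declines of ABCF3 missed the threshold (adjusted p = 0.129 and 0.105). ABCE1 had 70.48 and 66.04 in chaetocin-treated cells, 74.08 and 59.54 in chetomin-treated cells and 92.12 and 90.33 in vehicle cells at 12 h, and was called lower with chaetocin (-0.41 ± 0.13, SE, adjusted p = 0.0374) but not with chetomin (-0.45, adjusted p = 0.0705). ABCF1, a factor that binds eIF2, was called lower with chetomin (-0.49, adjusted p = 0.0456) and not with chaetocin (-0.34, adjusted p = 0.0793). ABCF2 was level, with differences of -0.05 for each compound and 95% intervals of -0.39 to 0.28 with chaetocin and -0.43 to 0.34 with chetomin.

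The sterol and phospholipid exporters showed no common direction. ABCA7, a phospholipid exporter, had 11.02 and 13.12 in chaetocin-treated cells, 16.96 and 14.25 in chetomin-treated cells and 22.02 and 21.97 in vehicle cells at 5 h. It fell with chaetocin at that time (-0.82 ± 0.20, SE, adjusted p = 0.0464), a call that was lost on the authors' CPM scale (adjusted p = 0.113). At 12 h it had 22.29 and 21.83 in chaetocin-treated cells, 12.17 and 13.03 in chetomin-treated cells and 19.47 and 27.09 in vehicle cells, and then fell with chetomin (-0.82 ± 0.23, SE, adjusted p = 0.0245) while the chaetocin difference was -0.06 (95% interval -0.54 to 0.42). ABCG1, which exports cholesterol to high-density lipoprotein, and ABCG4 were low throughout and were not called. In subfamily C, ABCC10, a drug exporter, fell with chaetocin at 12 h (-0.72 ± 0.22, SE, adjusted p = 0.036) and had -0.63 with chetomin (adjusted p = 0.0878).

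The members that were near silence in vehicle were all higher with both intact compounds at 12 h. ABCB4 (chr7:87401697-87480435, minus strand), the phosphatidylcholine exporter of bile canaliculi, had 1.10 and 1.06 in chaetocin-treated cells, 0.45 and 0.41 in chetomin-treated cells and 0.01 and 0.00 in vehicle cells. ABCC12 (chr16:48081006-48156018, minus strand) had 1.24 and 1.02 in chaetocin-treated cells, 0.52 and 0.30 in chetomin-treated cells and 0.01 and 0.00 in vehicle cells. ABCA4 (chr1:93992835-94121132, minus strand), the retinoid transporter of photoreceptors, had 1.51 and 1.48 in chaetocin-treated cells, 0.56 and 0.64 in chetomin-treated cells and 0.15 and 0.03 in vehicle cells. In each of the 3 genes both chaetocin libraries exceeded both chetomin libraries. ABCC11 (chr16:48166910-48247568, minus strand), whose protein exports lipophilic anions, had 0.60 and 0.72 in chaetocin-treated cells, 0.64 and 1.43 in chetomin-treated cells and 0.05 and 0.14 in vehicle cells. ABCA9 had 0.25 and 0.19 in chaetocin-treated cells and 0.48 and 0.89 in chetomin-treated cells and was listed at 0 in both vehicle libraries.

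On the log2(value + 1) scale the differences of these 5 genes ran from 0.29 (ABCA9) to 1.20 (ABCA4) with chaetocin and from 0.48 (ABCC12) to 0.87 (ABCC11) with chetomin. Of all genes with a vehicle mean under 0.2 at 12 h, 84.8% of 1120 were called higher with chaetocin and 71.3% of 1124 with chetomin, and none with the analogs. Every gene listed at 12 h had an authors' mean CPM of at least 0.50 in some group, and 126 of 15381 stayed under 1, so for a gene near silence in vehicle a higher value in a treated group is in part a condition of being listed. Markers of other cell types moved alongside: of 15 in the list 7 were listed at 12 h and 5 were higher with each intact compound (ALB, CD68, PECAM1, VIM and VWF). Their summed values were 25.67 and 21.69 in chaetocin-treated cells, 20.32 and 20.70 in chetomin-treated cells, 13.68 and 18.76 in MeS-chaetocin cells, 14.64 and 11.21 in MeS-chetomin cells and 9.12 and 12.60 in vehicle cells. Their part in the result was not tested. 7 pairs of members lie less than 1000000 bases apart, and with chaetocin at 12 h both genes were called higher in 2 of them, ABCB1 and ABCB4 (23198 bases apart) and ABCC11 and ABCC12 (10892). Of the others, ABCA9 was higher and ABCA5 lower, ABCA4 was higher and ABCD3 lower, ABCC1 was lower and ABCC6, 5854 bases away, was not called, ABCF3 was lower and ABCC5 not called, and neither ABCB8 nor ABCF2 was called.

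**Figure D2:**
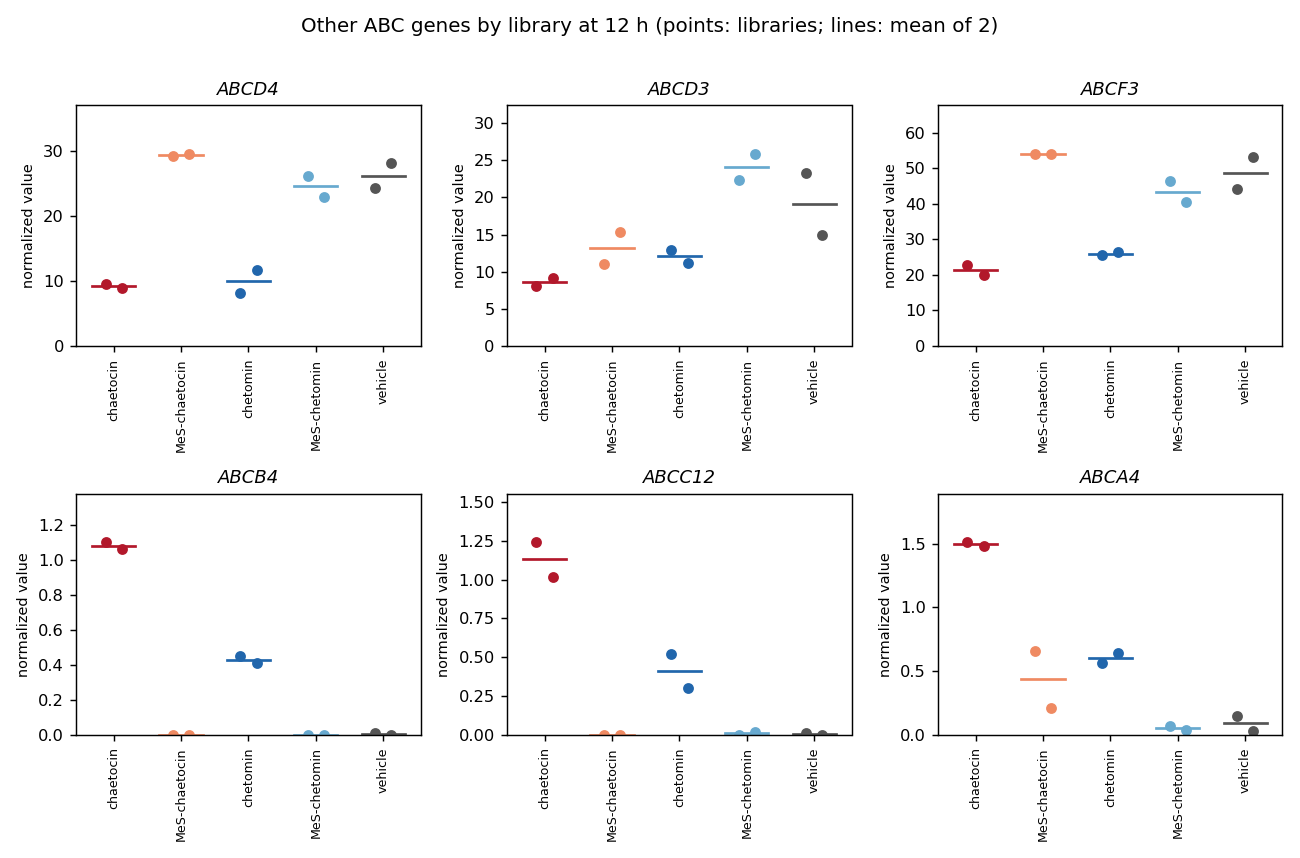
Normalised values at 12 h of ABCD4, ABCD3, ABCF3, ABCB4, ABCC12 and ABCA4 in every library, by treatment group, with a bar at each group's mean. ABCD4 and ABCF3 are lowest with the intact compounds, ABCD3 is lowest with chaetocin, and ABCB4 and ABCC12 are at or near 0 in the analog and vehicle libraries.

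Counted over the family, 17 of 33 members were called with chaetocin at 12 h (51.5%), 8 higher and 9 lower, against 47.0% of all genes in either direction, 20.2% higher and 26.8% lower. With chetomin 14 of 33 were called (42.4%), 7 higher and 7 lower, against 35.8% of all genes, 15.6% higher and 20.2% lower. The family's share thus lay near that of all genes. The median log2 difference was -0.19 over members and -0.16 over all genes with chaetocin, and -0.42 and -0.15 with chetomin. The members called higher with chaetocin had a median vehicle mean of 0.0925, and those called lower had one of 19.2 (range 1.51 to 91.2). The higher group holds the 5 members near silence in vehicle, for which a higher value is in part a condition of being listed. Of all genes with a vehicle mean under 0.2 at 12 h, 0 were called lower with either compound. This contrast and the counts of higher members thus depend in part on the listing. Leaving out a chaetocin library ended 13 of the 17 calls (without replicate 1, adjusted p of 0.0517 to 0.277) or 12 (without replicate 2, 0.0553 to 0.257), those of ABCB1, ABCC3 and ABCC1 among them, with no change of sign. For chetomin 10 and 11 of 14 calls ended in this way, and 4 and 6 ended without vehicle replicate 1 or 2.

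By subfamily, the 12 h calls with chaetocin were 2 higher and 2 lower of 7 in A, 2 and 1 of 7 in B, 3 and 2 of 9 in C, 0 and 1 of 1 in E, 0 and 1 of 3 in F, and 0 of 3 in G. With chetomin they were 2 and 2 of 7 in A, 2 and 1 of 7 in B, 3 and 1 of 9 in C, 0 of 1 in E, 0 and 2 of 3 in F, and 0 of 3 in G. No member of E or F was called higher, and G had no call by limma. Over all genes 20.2% were called higher and 26.8% lower with chaetocin, and 15.6% and 20.2% with chetomin. Beside these shares, counts in subfamilies of 1 or 3 genes do not set a subfamily apart. At an unadjusted p under 0.05, 0 of 3 members of G passed with chaetocin and 1 with chetomin. The 5 pumps had 2 higher and 1 lower with each compound (medians 0.25 and 0.03), and the other 28 had 6 higher and 8 lower with chaetocin (-0.20) and 5 and 6 with chetomin (-0.43). No test set the subfamilies against each other.

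The direction of small changes depended on the scale. On the authors' CPM scale the median of all genes stood 0.29 higher with chaetocin and 0.25 higher with chetomin at 12 h. All-gene calls were then 4347 higher and 2160 lower with chaetocin, as against 3102 and 4128 here, and 3508 and 1398 with chetomin, as against 2397 and 3106. Member calls on that scale were 8 higher and 5 lower with chaetocin, without the declines of ABCB10, ABCC10, ABCD3 and ABCE1, and 7 and 4 with chetomin, without those of ABCA7, ABCB10 and ABCF1. The rises of ABCB1 and ABCC3 and the declines of ABCC1, ABCD4, ABCF3 and ABCA3 were called on both scales with both compounds.

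At 5 h, 2 of 28 members were called with each intact compound (7.14%). With chaetocin both were lower (ABCA7 and ABCF3), against 11.1% of all genes in either direction, 4.56% higher and 6.53% lower. With chetomin 1 was higher (ABCC3) and 1 lower (ABCF3), against 15.7% in either direction, 7.02% higher and 8.71% lower. Members at an unadjusted p under 0.05 numbered 7 and 9, a threshold at which the share of all genes was not taken. Member differences ran from -0.82 to 0.73 with chaetocin and from -0.71 to 1.56 with chetomin. The 5 h libraries of highest sum, vehicle replicate 1 among them, deviated together from their partners, which widens the spread at this time. A missed threshold at 5 h is therefore not evidence of no change. On the authors' CPM scale there were 0 calls with chaetocin, and with chetomin 3 members were called, all higher, with ABCB1 (0.93) and ABCC3 (1.78) among them. The all-gene split moved too, to 879 higher and 503 lower from 648 and 928 here with chaetocin, and to 1410 and 652 from 998 and 1239 with chetomin. Leaving out 1 library at a time left 0 to 1 calls with chaetocin and 0 to 4 with chetomin, and ABCC3 missed the threshold without chetomin replicate 1 (adjusted p = 0.0855) or replicate 2 (0.134).

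The analogs gave no call in the family. With MeS-chaetocin 0 of 28 members were called at 5 h and 0 of 32 at 12 h by limma, against 0.0% of all genes at both times. With MeS-chetomin 0 of 28 and 0 of 32 were called, against 0.141% and 0.0% of all genes. At an unadjusted p under 0.05 there were 2 and 3 members with MeS-chaetocin and 2 and 0 with MeS-chetomin. The share of all genes at that threshold was not taken. The authors' deposited table also held no member at a q-value under 0.05 with either analog, and its share of all genes was not taken. Member differences ran from -0.46 to 0.40 at 5 h and -0.50 to 0.68 at 12 h with MeS-chaetocin, and from -0.25 to 0.64 and -0.33 to 0.42 with MeS-chetomin.

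**Figure D3:**
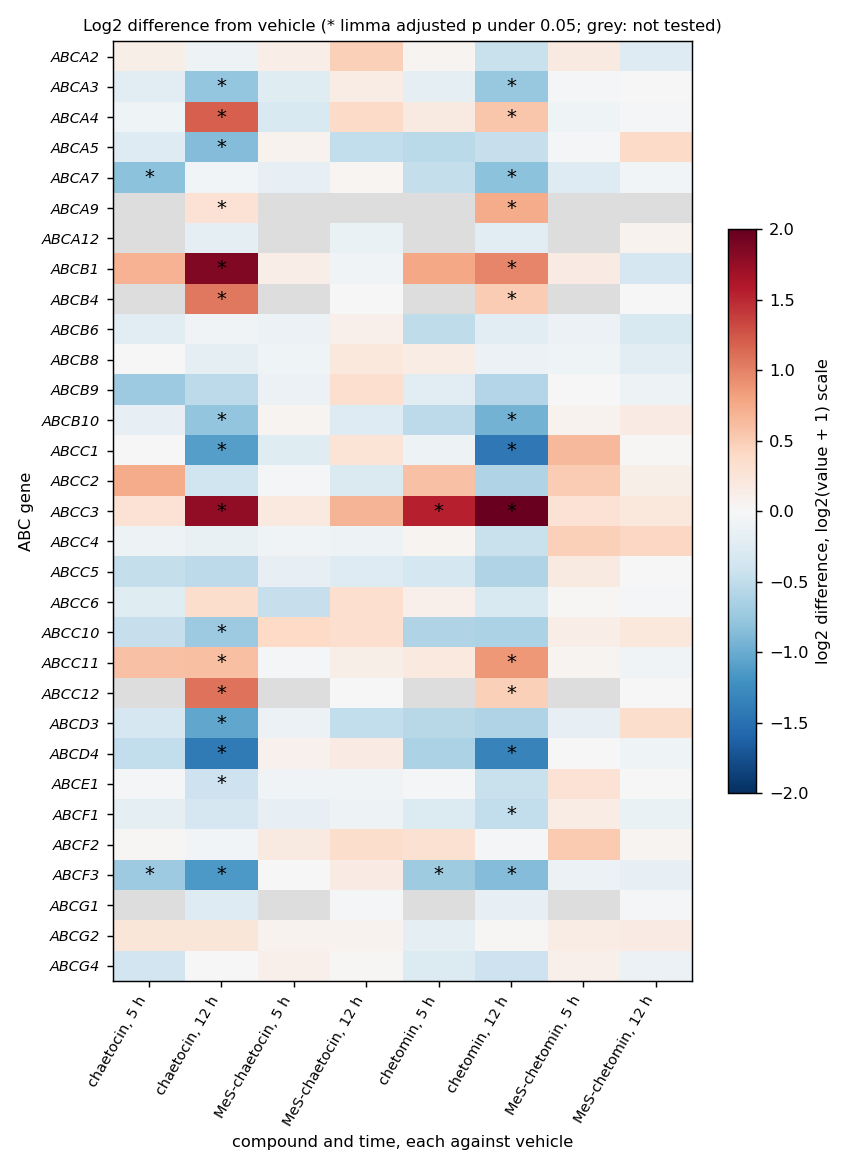
Log2 differences from vehicle, on the log2(value + 1) scale, of the members reported here (rows, by subfamily) in the 8 comparisons with vehicle (columns), coloured from -2 to 2, with an asterisk at an adjusted p under 0.05 and grey for members not tested. The asterisks stand in the chaetocin and chetomin columns, mostly at 12 h, and none in the analog columns.

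Each intact compound was also set directly against its analog at the same dose and time. At 12 h chaetocin and MeS-chaetocin differed in 18 of 33 members (54.5%), 8 higher and 10 lower, against 53.8% of all genes in either direction, 22.2% higher and 31.6% lower. ABCB1 had 14.77 and 10.85 in chaetocin-treated cells against 3.10 and 2.19 in MeS-chaetocin cells (1.92 ± 0.24, SE, adjusted p = 0.000766), a ratio of means of 4.84. ABCC3 had 12.33 and 12.50 against 5.79 and 4.80 (1.10 ± 0.19, SE, adjusted p = 0.00287), a ratio of 2.34. ABCC1 had 11.89 and 10.82 against 30.38 and 31.23 (-1.37 ± 0.13, SE, adjusted p = 0.000298). ABCD4 (-1.58) and ABCF3 (-1.30) were lower likewise. ABCC2 and ABCG2 did not pass, with intervals of -0.55 to 0.34 and -0.66 to 1.02. On the authors' CPM scale 8 were higher and 5 lower, and the all-gene split was 4750 and 3004, as against 3412 and 4860 here. Leaving out 1 library of either compound ended 6 to 8 of the 18 calls, and 9 of 18 were called whichever of these was left out.

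Chetomin and MeS-chetomin differed at 12 h in 21 of 33 members (63.6%), 7 higher and 14 lower, against 47.4% of all genes in either direction, 18.8% higher and 28.6% lower. ABCB1 had 7.70 and 5.36 in chetomin-treated cells against 2.16 and 1.85 in MeS-chetomin cells (1.31 ± 0.22, SE, adjusted p = 0.00369). ABCC3 had 15.77 and 12.98 against 3.79 and 3.24 (1.76 ± 0.20, SE, adjusted p = 0.000755), a ratio of means of 4.09. ABCC1 had 10.58 and 7.21 against 25.57 and 26.17 (-1.46 ± 0.19, SE, adjusted p = 0.00134). ABCC2, with 14.29 and 12.33 against 22.09 and 22.82, was also lower (-0.72 ± 0.18, SE, adjusted p = 0.016), as were ABCC4 (-0.86), a cyclic nucleotide exporter, and ABCC5 (-0.61). ABCG2 was not called (-0.13, 95% interval -0.70 to 0.43). On the authors' CPM scale 13 members were called, 8 higher and 5 lower, the calls of ABCC2, ABCC4 and ABCC5 were lost, and the all-gene split was 4679 and 1856, as against 2885 and 4405 here. Leaving out 1 library of either compound ended 8 to 10 of the 21 calls, and 11 were called whichever was left out.

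At 5 h the chetomin pair differed in 7 of 28 members (25.0%), 2 higher and 5 lower, against 32.8% of all genes in either direction, 8.97% higher and 23.9% lower. ABCC3 (1.27 ± 0.25, SE, adjusted p = 0.00795) and ABCB1 (0.61 ± 0.19, SE, adjusted p = 0.0423) were higher, and ABCC1 (-0.75), ABCC10 (-0.73), ABCD4 (-0.64), ABCF3 (-0.59) and ABCF1 (-0.42) were lower. ABCC1 had 13.43 and 10.99 in chetomin-treated cells and 19.20 and 23.31 in MeS-chetomin cells. Leaving out 1 library of either compound left 0 to 2 members called. All 5 declines were lost on the authors' CPM scale and by median of ratios, each of which gave 3 members higher and 0 lower, and the all-gene split was 3033 higher and 1587 lower on the CPM scale, as against 1276 and 3393 here. The chaetocin pair gave 0 of 28 calls at 5 h by limma, against 6.56% of all genes. An unadjusted p under 0.05 was met by 7 members, with no share of all genes taken.

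Chaetocin and chetomin, set against each other, differed at 12 h in 3 of 33 members (9.09%), all higher with chaetocin, against 4.67% of all genes in either direction and 3.40% higher. They were ABCA4 (0.64 ± 0.13, SE, adjusted p = 0.0326), ABCB4 (0.54 ± 0.12, SE, adjusted p = 0.0374) and ABCC12 (0.60 ± 0.13, SE, adjusted p = 0.0417), all near silence in vehicle, and each call was lost when any 1 of the 4 libraries was left out and at a pseudocount of 0.1. The larger difference of ABCB1 (0.88, 95% interval 0.31 to 1.44, adjusted p = 0.0824) missed the threshold. ABCC3 (-0.19, -0.64 to 0.26) and ABCC1 (0.34, -0.12 to 0.80) did not pass either. At 5 h 0 of 28 members were called by limma, against 0.767% of all genes. ABCC3 came nearest to a call (-1.27, -1.80 to -0.75, adjusted p = 0.0587). An unadjusted p under 0.05 was met by 3 members, with no share of all genes taken. The analogs differed from each other in 0 members at both times by limma, against 0.0% of all genes at 5 h and 0.00656% at 12 h. At an unadjusted p under 0.05 there were 2 and 8 members, a threshold at which the share of all genes was not taken. ABCC3 was 0.48 higher with MeS-chaetocin than with MeS-chetomin at 12 h (0.03 to 0.92, adjusted p = 0.168).

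**Figure D4:**
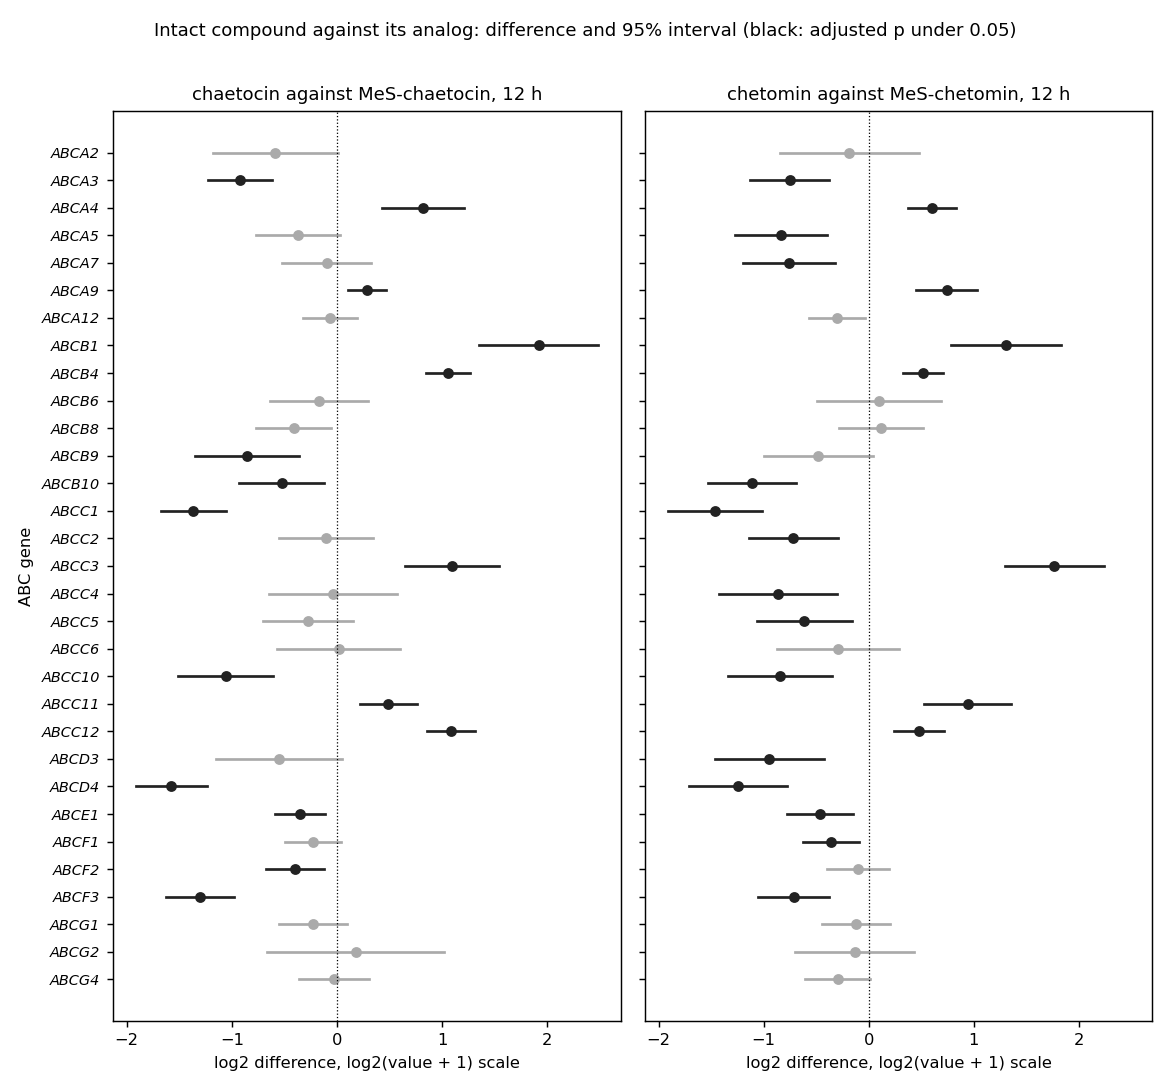
Log2 differences at 12 h between each intact compound and its analog for the members reported here, on the log2(value + 1) scale with 95% intervals, in black where the adjusted p is under 0.05. ABCB1 and ABCC3 lie to the right of 0 and ABCC1, ABCD4 and ABCF3 to the left in both comparisons.

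The chaetocin effect at 12 h exceeded that at 5 h in 2 of 28 members (7.14%), against 4.32% of all genes in either direction and 3.43% in the same direction. These were ABCC3 (a difference of effects of 1.49 ± 0.31, SE, adjusted p = 0.0251) and ABCA4 (1.28 ± 0.20, SE, adjusted p = 0.00733). The ABCC3 call was lost when any 1 library other than vehicle replicate 2 at 5 h was left out (adjusted p up to 0.108), and that of ABCA4 held in every such fit. ABCB1 (1.16, 95% interval 0.32 to 2.00, adjusted p = 0.117), ABCC1 (-1.10, adjusted p = 0.107) and ABCC2 (-1.13, adjusted p = 0.108) missed the threshold. For chetomin 0 of 28 members changed between the times by limma, against 0.497% of all genes. An unadjusted p under 0.05 was met by 4 members, with no share of all genes taken. ABCC3, already high at 5 h, had a difference of effects of 0.41 (-0.31 to 1.13).

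Genes that work with the ABC proteins were followed as lists, which also hold TAP1 and TAP2, ABC genes that the symbol rule leaves out. At 12 h 20.2% of all genes were higher and 26.8% lower with chaetocin, and 15.6% were higher and 20.2% lower with chetomin, and the counts of each list stand against these shares. Glutathione supply, which feeds the ABCC pumps, had 2 of 6 genes higher and 0 lower with each intact compound at 12 h. The authors' CPM scale gave 4 of 6 higher with each. GCLM, a subunit of the enzyme that limits glutathione synthesis, had 61.50 and 69.82 in chaetocin-treated cells, 110.29 and 117.24 in chetomin-treated cells and 21.12 and 13.81 in vehicle cells, with differences of 1.88 ± 0.22 and 2.66 ± 0.22 (SE). GGT1, which splits extracellular glutathione, was also higher (2.11 and 1.27). At 5 h GGT1 was higher with chaetocin (1.35) and with chetomin (1.31), and GCLM with chetomin (1.78). Of 13 sterol and xenobiotic receptors and regulators tested, 2 were higher and 5 lower with chaetocin at 12 h, among them NR1H2 (1.03), the liver X receptor beta, and RXRA (-1.38), its dimer partner. With chetomin 1 was higher (NR1H2, 0.97) and 5 were lower, RXRA among them (-1.11), as against 2 higher and 3 lower on the authors' CPM scale.

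The peptide loading complex around the TAP transporter had 1 of 6 genes higher (PDIA3, 0.38) and 2 lower (TAPBP, -1.22, and TAP1, -0.93) with chaetocin at 12 h. With chetomin 0 were higher and 3 lower (TAPBP, -1.39, TAP1, -0.84, and TAP2, -0.72), of which TAPBP alone was called lower on the authors' CPM scale. Among 6 translation partners ETF1, the release factor, was higher (0.96 and 0.82), and GCN1 (-0.86 and -0.81) and EIF2AK4 (-1.12 and -0.78), the sensor kinase of amino acid lack, were lower with chaetocin and chetomin. With chetomin both declines were lost on the authors' CPM scale. Among 8 haem and iron-sulfur genes ALAS1, the first enzyme of haem synthesis, was higher with both (0.61 and 0.54). FECH was lower with chaetocin (-0.49), and NFS1 (-0.78) and SLC25A37 (-0.59) were lower with chetomin, and these 3 calls were lost on the authors' CPM scale, which gave 2 genes higher and 0 lower with each compound. None of 5 peroxisome partners was called by limma with either compound at 12 h. An unadjusted p under 0.05 was met by 0 with chaetocin and 2 with chetomin, with no share of all genes taken. KCNJ11, the channel partner of the sulfonylurea receptor, was lower with both (-1.01 and -1.13), and CFTR was not analysed here.

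The authors' deposited table, at a q-value under 0.05, held 8 members higher and 8 lower with chaetocin at 12 h, and 16 of these calls were also made here. With chetomin it held 7 higher and 12 lower, of which 13 were also made here. The share of all genes at that q-value was not taken at either time, so these counts are no result about the family. In the authors' deposited table the log2 fold change of ABCB1 at 12 h was 2.97 with chaetocin and 1.84 with chetomin, and that of ABCC3 was 2.36 and 2.20. These rest on the authors' CPM, without the added 1, so their sizes cannot be set directly against the differences here. At 5 h the authors' deposited table held ABCC11, ABCC2 and ABCC3 higher and ABCB9 and ABCG4 lower with chaetocin, none of which was called here. With chetomin at 5 h it held 6 higher, ABCB1, ABCC2 and ABCC3 among them, and 1 lower (ABCD3), of which ABCC3 was also called here.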

How the data were processed

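Poly(A) RNA libraries were made with a strand-keeping kit, per the labels' protocols. The submitters' processing notes name STAR 2.5.2b, RSEM 1.3.3, edgeR without a version and GRCh38. For the parameters, annotation and strand setting, no source used here gives a value. The 8 deposited tables hold the authors' normalised signal per library, which follows transcript length, a mean CPM per group (also stored as signal), a log2 fold change, and a p-value with its q-value. The headers do not name the unit of the per-library signal, and all 80 library columns were read, with 0 left unused.

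The design assumed counts; the values are not counts, so log2(value + 1) was fitted by limma 3.58.1 (R 4.3.3) with trended variance over all genes, two-sided, with no further filter. The 8 comparisons with vehicle used 4 libraries each, the 8 direct ones 6 including vehicle, and the 2 comparisons of times 8. With 2 libraries against 2 an exact permutation test cannot go below 0.333, and replicate p-values measure only the spread between these samples. Intervals are 95%. The fit was tested on simulated data. Groups follow the labels. Results for some members are not reported here. The pumps were named in every comparison with vehicle, other members where called, with library values for the largest changes, and called list genes with up to 3 values. Members and lists were chosen with earlier results of these data known. Alternatives were a pseudocount of 0.1, a mean value of at least 1, the authors' CPM scale, median-of-ratios scaling, a spread shared over groups, a replicate block and leaving out each library.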

Additional observations from a re-analysis of the deposited data

Results flagged for a closer look

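In 2 members the effect of chaetocin on expression differed between the times, by a test of the difference itself (limma, interaction of compound and time, adjusted over all genes). The effect on ABCC3 was 1.49 larger at 12 h than at 5 h on the log2 scale, and that on ABCA4 was 1.28 larger. The ABCC3 call was lost at a pseudocount of 0.1 and with the replicate block. ABCA4 was near silence in vehicle at 12 h (mean under 0.2), as were many genes called higher with chaetocin at that time. At 12 h ABCC3 had 12.33 and 12.50 in chaetocin-treated cells and 2.70 and 3.13 in vehicle cells, and at 5 h it had 3.32 and 3.84 in chaetocin-treated cells and 2.99 and 2.53 in vehicle cells.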

How the results depend on the processing

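Over 99 results, a pseudocount of 0.1 kept direction and side of the threshold in 94, the spread shared over groups in 93, the replicate block in 83, median of ratios in 74 and the authors' CPM scale in 68. The number of members called at 5 h for chaetocin against vehicle was 2, and 0 on the CPM scale and by median of ratios, 4 with a shared spread, 1 with the replicate block and 7 with a crossed block. For chetomin against vehicle at 5 h it was 2, and 4 with the block and 10 with a shared spread without the 3 libraries of highest sum (this and the crossed block were chosen after seeing the data). For chaetocin against MeS-chaetocin at 5 h it was 0, and 1 with the pseudocount, 4 with a shared spread, 7 with the crossed block and 2 without the 3 libraries. For chetomin against MeS-chetomin at 5 h it was 7, and 3 on the CPM scale and by median of ratios, 4 with a shared spread and 13 without the 3 libraries. For chaetocin against chetomin it was 0 at 5 h, and 1 with a shared spread, and 3 at 12 h, and 0 with the pseudocount, 1 at a mean value of at least 1, 7 with a shared spread and 1 with the block. At 12 h it was 17 for chaetocin against vehicle and 11 at a mean value of at least 1, 14 for chetomin and 9 with that filter and 22 with a shared spread, and 21 for chetomin against MeS-chetomin and 13 on the CPM scale. The change with time was 2 for chaetocin, and 1 with the pseudocount, the filter or the block and 5 with a shared spread, and 0 for chetomin and 2 with the block. The cause of these moves was not tested beyond the genes the filter removes.

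With 1 library left out, counts ranged at 5 h over 0 to 1 (chaetocin), 0 to 4 (chetomin), 0 to 1 (MeS-chetomin, each against vehicle) and 0 to 2 (chetomin against MeS-chetomin). At 12 h they ranged over 4 to 19 (chaetocin against vehicle), 3 to 11 (chetomin against vehicle), 10 to 13 (chaetocin against MeS-chaetocin), 11 to 14 (chetomin against MeS-chetomin) and 0 to 0 (chaetocin against chetomin), and the change with time over 1 to 2 for chaetocin and 0 to 2 for chetomin. The lone library is then assumed to vary like the others.

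Signs turned for uncalled pumps and 1 called gene. For ABCC1, chaetocin against vehicle at 5 h, leaving out 1 library gave -0.26 (chaetocin replicate 1 or vehicle replicate 1) to 0.26. For ABCC1, chetomin against vehicle at 5 h, the CPM scale gave 0.11, median of ratios 0.0078, and leaving out 1 library -0.37 to 0.15, above 0 without chetomin replicate 2 or vehicle replicate 2. For ABCG2, chaetocin against vehicle at 5 h, leaving out 1 library gave -0.17 (vehicle replicate 1) to 0.66, and for ABCG2, chetomin against vehicle at 5 h, -0.59 to 0.24 (vehicle replicate 2). For ABCG2, chaetocin against vehicle at 12 h, it gave -0.34 (chaetocin replicate 2) to 0.84, and for ABCG2, chetomin against vehicle at 12 h, -0.16 (chetomin replicate 1) to 0.22. For ABCF1, chetomin against MeS-chetomin at 12 h, the CPM scale gave 0.040. Replicate numbers do not mark pairs throughout (correlations of deviations from -0.60 to 0.69), so the block is given here alone. At 5 h the correlation was 0.69 for vehicle and MeS-chaetocin, -0.49 for vehicle and chaetocin and -0.60 for chaetocin and MeS-chaetocin. Vehicle replicate 1, MeS-chaetocin replicate 1 and chaetocin replicate 2, the libraries of highest sum, thus deviated together from their partners. The depth of the chaetocin and chetomin libraries is unknown, so no limit from depth is given.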
